A study of Mus musculus with 20 samples.

Results

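The genes described here are 33 genes of the unfolded protein response (UPR) and the integrated stress response, chosen by gene symbol from the rows of the deposited expression tables. Of these, 20 belong to the UPR proper (ER chaperones, disulfide isomerases, sensors and ER-associated degradation) and 13 to the ATF4 branch. All 33 were found among the 26099 genes of the acute table and the 26486 genes of the survival table. Tests were possible for 32 members in the acute table and 31 in the survival table, because Trib3 in both tables and Chac1 in the survival table were too low: a test needed 10 or more normalized counts in at least 4 acute or 5 survival libraries. RNA came from 20 samples of leukemic mouse spleen. All mice were sub-lethally irradiated and received, by vein, T-cell acute lymphoblastic leukemia (T-ALL) cells carrying a conditional Acly allele. In the acute arm, KO_acute (4 libraries) was tamoxifen, 3 mg per mouse in corn oil, given once leukemia was overt, and WT_acute (6 libraries) was corn oil alone, with spleens taken 72 h later. In the survival arm, KO_survival (5 libraries) received the same tamoxifen dose 48 h after transplantation and WT_survival (5 libraries) received corn oil, with spleens taken at the humane endpoint. WT therefore means the same conditional leukemia left undeleted, and the effects of tamoxifen and of Acly loss cannot be told apart. The driver of the recombinase, the number of independent leukemias and the age and strain of the mice were not stated in the labels. Whole spleen suspensions were lysed for red cells and no sort was named, so fewer cells of a type and less RNA per cell cannot be told apart. Libraries are called KO 1 or WT 1 by their labelled replicate number, and the labels do not state outright that each came from its own mouse. The p-values therefore rest on library-to-library spread alone.

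The UPR adjusts the folding capacity of the endoplasmic reticulum (ER) to its load. Misfolded proteins draw the chaperone BiP away from the sensors IRE1, ATF6 and PERK. IRE1 cuts Xbp1 mRNA so that it encodes an active factor, ATF6 is cleaved into a factor in the Golgi, and both raise chaperones and degradation genes. PERK, like the kinases that sense amino acid shortage, viral RNA or heme deficiency, phosphorylates the initiation factor eIF2α. This lowers general translation and favours that of ATF4, which drives genes of amino acid supply, serine and one-carbon metabolism and, under prolonged stress, cell death. In the spleen, plasma cells are known for high XBP1 activity and a large ER. Both tables hold a single value per gene, so spliced and unspliced Xbp1, and ATF4 protein, were not measured.

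Several UPR members shared a promoter element. The members were chosen by symbol and the motifs as known elements of these same pathways, so the 2 choices were not independent. RefSeq promoter windows of 250 bases before to 50 bases after the gene start were at hand for 29 members, 17 of the UPR and 12 of the ATF4 branch. Atf6, Hyou1, Manf and Slc7a5 were not matched. The ER stress response element (ERSE), searched on both strands as CCAAT, 9 bases of any kind and CCACG, lay in the windows of 8 of the 17 UPR members and 0 of the 12 ATF4 branch members, against 39 of all 32851 windows (0.119%). Its 8 holders were Hspa5, Calr, Hsp90b1 (2 matches), Canx, Pdia6, Dnajc3, Creld2 and Syvn1. ERSE-II, searched as ATTGG, 1 base of any kind and CCACG, was found in Herpud1 alone among the members, and in 0.0365% of all windows. The XBP1 element TGACGTGG was found in 0 member windows and in 0.676% of all. The C/EBP-ATF response element (CARE) to which ATF4 binds, searched as TGATGNAA, lay in the windows of Chac1, Asns and Trib3 in the ATF4 branch and of Herpud1 in the UPR, against 3.97% of all windows. None of these motif searches overlapped another in the member windows. A match is a description of letters in this window and not a bound site.

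The 6 windows below are those of the tested members with the largest acute fold changes among holders of ERSE and of CARE, shown 5′ to 3′ on the strand of the gene, in GRCm38.p6. Capitals mark the motif matches: ERSE in Creld2, Hsp90b1 and Pdia6, CARE in Chac1 and Asns, and both CARE and ERSE-II, in that order, in Herpud1. Creld2 lies at chr15:88819396-88819695 (plus strand), Hsp90b1 at chr10:86705395-86705694 (minus strand), Pdia6 at chr12:17266339-17266638 (plus strand), Chac1 at chr2:119350992-119351291 (plus strand), Asns at chr6:7693160-7693459 (minus strand) and Herpud1 at chr8:94386179-94386478 (plus strand).
Creld2: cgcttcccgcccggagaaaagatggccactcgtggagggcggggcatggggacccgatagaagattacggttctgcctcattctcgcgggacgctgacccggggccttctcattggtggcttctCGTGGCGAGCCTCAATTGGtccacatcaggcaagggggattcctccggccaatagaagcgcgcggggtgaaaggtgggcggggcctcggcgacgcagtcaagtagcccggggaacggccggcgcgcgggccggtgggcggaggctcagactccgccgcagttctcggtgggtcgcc
Hsp90b1: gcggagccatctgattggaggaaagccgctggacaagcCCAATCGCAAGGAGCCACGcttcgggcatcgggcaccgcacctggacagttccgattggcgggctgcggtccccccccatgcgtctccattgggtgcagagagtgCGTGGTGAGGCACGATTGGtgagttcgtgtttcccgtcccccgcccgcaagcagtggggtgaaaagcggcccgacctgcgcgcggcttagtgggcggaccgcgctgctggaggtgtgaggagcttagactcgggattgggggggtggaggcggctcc
Pdia6: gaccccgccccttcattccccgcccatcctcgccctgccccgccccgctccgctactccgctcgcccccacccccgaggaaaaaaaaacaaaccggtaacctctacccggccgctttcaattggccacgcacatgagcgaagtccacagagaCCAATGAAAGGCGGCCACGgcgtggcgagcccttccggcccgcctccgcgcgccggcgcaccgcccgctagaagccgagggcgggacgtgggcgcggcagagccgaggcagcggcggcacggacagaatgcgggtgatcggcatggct
Chac1: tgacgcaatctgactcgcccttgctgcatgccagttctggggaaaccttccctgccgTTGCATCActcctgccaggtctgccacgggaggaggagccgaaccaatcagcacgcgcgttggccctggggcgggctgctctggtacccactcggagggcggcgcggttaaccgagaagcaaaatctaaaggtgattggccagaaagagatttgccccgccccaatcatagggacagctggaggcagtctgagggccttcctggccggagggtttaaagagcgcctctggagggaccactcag
Asns: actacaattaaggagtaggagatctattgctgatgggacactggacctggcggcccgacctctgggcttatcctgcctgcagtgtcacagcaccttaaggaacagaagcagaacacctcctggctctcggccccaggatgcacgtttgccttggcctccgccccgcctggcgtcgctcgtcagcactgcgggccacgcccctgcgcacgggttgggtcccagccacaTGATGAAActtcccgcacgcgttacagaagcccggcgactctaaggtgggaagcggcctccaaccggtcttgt
Herpud1: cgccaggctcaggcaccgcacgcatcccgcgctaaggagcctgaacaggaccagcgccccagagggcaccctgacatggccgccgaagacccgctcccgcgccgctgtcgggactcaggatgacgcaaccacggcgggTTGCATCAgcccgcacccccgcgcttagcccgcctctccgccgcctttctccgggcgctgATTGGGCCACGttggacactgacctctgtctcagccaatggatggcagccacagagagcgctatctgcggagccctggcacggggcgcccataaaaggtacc

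**Figure D1:**
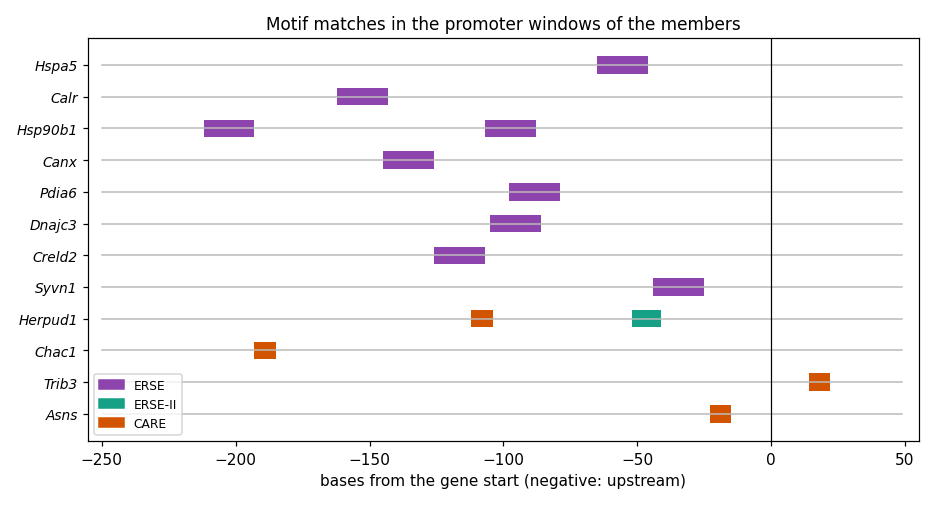
Motif matches in the promoter windows of the 12 members that hold at least 1 match, plotted as bases from the gene start (vertical line, negative upstream), with a colour for each motif. ERSE matches of 8 UPR members begin between 44 and 212 bases upstream of the gene start, and the CARE of Asns begins 23 bases upstream.

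The samples and the deletion were checked first. Values are normalized counts, the authors' estimated reads per gene scaled between libraries with DESeq, and fold changes are on the log2(normalized count + 1) scale. Normalized counts summed to 19432235 to 20731983 per acute library and 19998354 to 21623571 per survival library. Acly, the targeted gene, was lower in both KO groups, with a log2 fold change of -0.46 (SE 0.0747) in the acute arm and -1.38 (SE 0.131) in the survival arm, and KO and WT libraries did not overlap in either arm. Scaled to Trbc1 and Trbc2, the T-cell receptor beta constant genes, the acute value was -0.08 (adjusted p = 0.653 by limma). T-lineage markers were present in every library. Of 11, 10 were lower in KO_acute (3 lower and 1 higher with that scaling), beside 14.7% of all genes tested. Their summed level was 93789 to 125722 normalized counts in KO_acute and 150124 to 158460 in WT_acute, and 128755 to 154792 in KO_survival and 146705 to 153550 in WT_survival. In the acute arm markers of other cell types were higher in KO libraries for all tested neutrophil (10 of 10), monocyte and macrophage (9 of 9), B-cell (6 of 6) and NK (5 of 5) markers, for 4 of 7 plasma-cell markers and for 3 of 4 dendritic markers. Of all genes tested 16.7% were higher. The NK markers Klrb1c and Klrd1 and the dendritic marker Clec10a reached the level set for a test only with their KO_acute libraries. They are part of these counts and of the score that follows. A score of other cell types, the mean over those 6 lists of each list's mean log2(normalized count + 1) centred on the table, was 0.66, 1.86, 1.55 and 1.02 in KO_acute 1 to 4 and ran from -1.31 to -0.23 in WT_acute. KO_acute 2 and 3 thus stood highest. Erythroid markers were kept out of the score, and 0 of 5 were called in the acute arm. Their summed level was 5663 to 23193 normalized counts in KO_acute and 6395 to 14172 in WT_acute. Where a sign below turned when libraries were scaled to Trbc1 and Trbc2, the turned value is given as Trbc-scaled.

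The first comparison asks what the stress genes did within 72 h of deletion in an established leukemia. The UPR members were mostly higher in KO_acute: limma (Benjamini-Hochberg over all 16363 genes tested, called at an adjusted p under 0.05) called 14 of 20 higher, where 16.7% of all tested genes were higher. It called 1 of 20, Edem1, lower, where 14.7% of all genes were lower. In the ATF4 branch 2 of 12 tested members were higher (Chac1 and Asns) and 2 lower (Phgdh and Psph), shares near those of all genes. Chac1 reached the level set for a test only through its KO_acute libraries. Median log2 fold changes were 0.25 for the UPR members and 0.07 for the ATF4 branch, beside -0.02 over all genes tested, and fold changes were above 0 for 18 of 20 and 7 of 12 members, beside 47.0% of all genes. The 2 highest of the 10 libraries were KO_acute 2 and 3 for all 14 of the higher UPR members and for both Chac1 and Asns, which are also the libraries with the highest score of other cell types. Without those 2 libraries 2 of 20 UPR members, Ern1 and Sel1l, were higher (8.04% of all genes), and 0 of 12 ATF4 branch members were called by limma. At an unadjusted p under 0.05 were then 7 of 20 UPR members and 5 of 12 ATF4 branch members, beside 26.3% of all genes. The UPR median was then 0.13. With that score added to the fit, limma called 0 of 32 members, as it did 0 of 16363 genes (4 members of the UPR, 0 of the ATF4 branch and 6.05% of all genes at an unadjusted p under 0.05), and the medians were -0.19 for the UPR and -0.17 for the ATF4 branch. KO_acute and WT_acute scores did not overlap, so that fit could not separate deletion from the score. The share of these fold changes that comes from other cells was not tested.

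**Figure D2:**
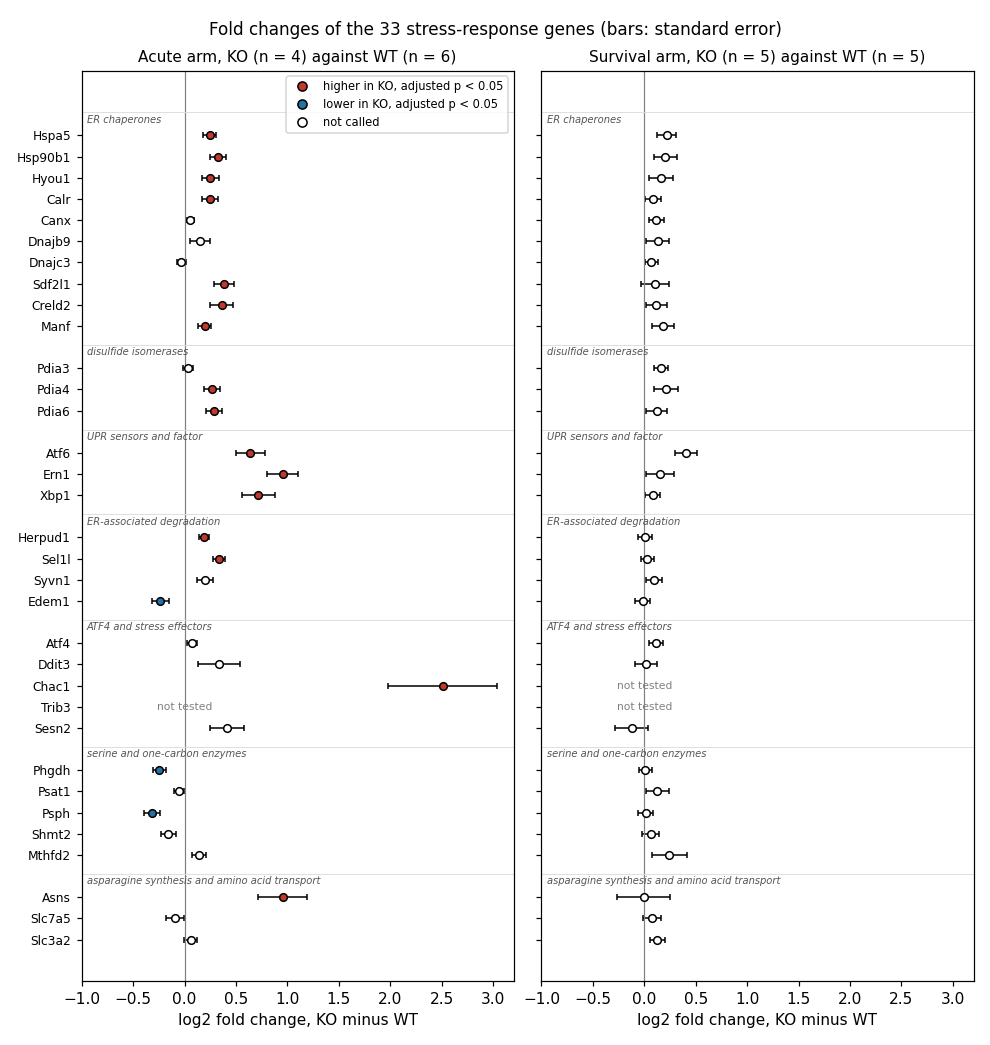
Log2 fold change, KO minus WT, of the 33 members by role in the acute arm (left, n = 4 KO and 6 WT) and the survival arm (right, n = 5 each), with the standard error as bars; filled points passed an adjusted p of 0.05. In the acute arm 14 of 20 UPR members and 2 of 12 tested ATF4 branch members are higher, beside 16.7% of all genes tested. Of the latter, Chac1 was tested only through its KO libraries. Edem1 in the UPR and Phgdh and Psph in the ATF4 branch (each above 0 when Trbc-scaled) are lower, beside 14.7% of all genes. In the survival arm 0 of 31 are called, beside 0.0124% of all genes.

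The sensors and their factor had the 3 largest fold changes of the UPR members, and all 3 were higher, where 16.7% of all genes tested were higher. Ern1, which encodes IRE1α, had 373, 674, 491 and 398 normalized counts in KO_acute 1 to 4, against a lowest, median and highest of 199, 250 and 271 in WT_acute. Every KO library was above every WT library. The log2 fold change was 0.95 (SE 0.154, adjusted p = 0.00079 by limma), a 1.94-fold difference, and remained called in each of 10 runs that left out 1 library. Xbp1, the target of that nuclease and a factor that raises ER capacity, had 1164, 2094, 1880 and 1267 normalized counts in KO_acute, against 829, 910 and 1153 (lowest, median, highest) in WT_acute. KO 1 and KO 4 stood just above the highest WT library, while KO 2 and KO 3 were far above it (log2 fold change 0.72, SE 0.158, adjusted p = 0.00505). Atf6, the sensor that becomes a factor when cleaved, had 444, 838, 694 and 603 normalized counts in KO_acute, against 360, 410 and 441 in WT_acute. Its groups did not overlap, although KO 1 lay only barely above the highest WT value (0.64, SE 0.141, adjusted p = 0.00504). Without KO_acute 2 and 3, Ern1 was 0.66 (adjusted p = 0.00559), while Xbp1 (0.37, adjusted p = 0.0632) and Atf6 (0.36, adjusted p = 0.0738) were not called. Eif2ak3, which encodes the third sensor PERK and was taken from the wider UPR list, was -0.02 and not called (adjusted p = 0.901), or 0.36 when Trbc-scaled (adjusted p = 0.0372).

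**Figure D3:**
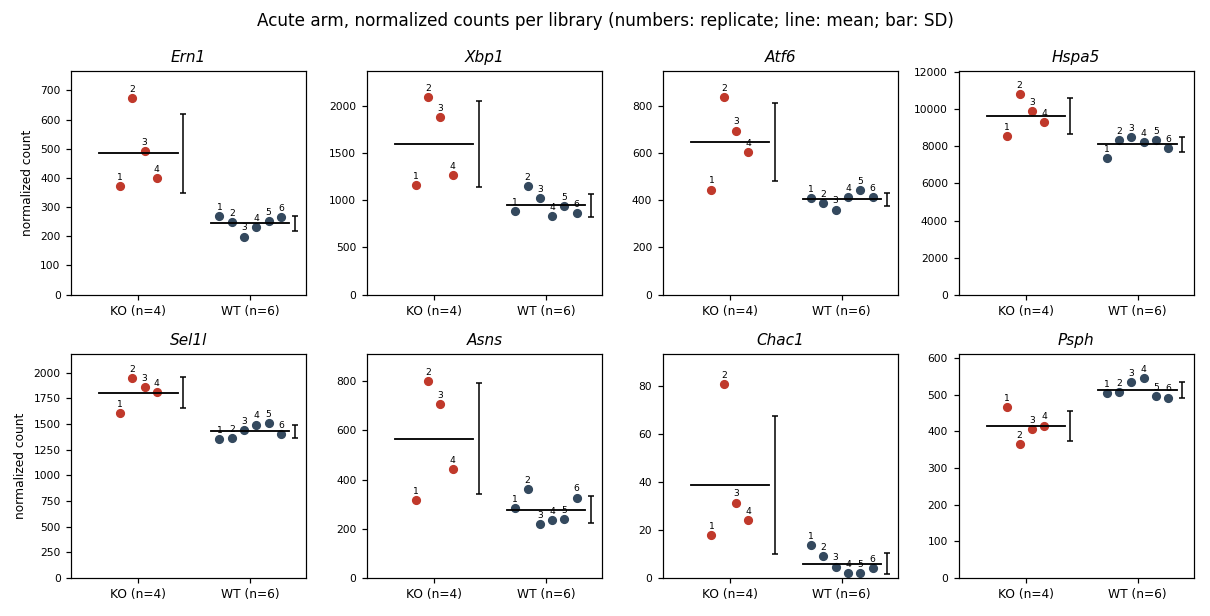
Normalized counts of 8 members in each acute library, KO (n = 4) left of WT (n = 6), with the replicate number above each point, the group mean as a line and the SD as a bar. KO 2 is the highest library for Ern1, Xbp1, Atf6, Hspa5, Sel1l, Asns and Chac1, and Psph (above 0 when Trbc-scaled) is lower in all 4 KO libraries than in any WT library.

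ER chaperones were higher by smaller amounts, 7 of 10 being called higher, where 16.7% of all genes tested were higher. Of the 8 UPR members with an ERSE in the promoter window 5 were called higher, as were 6 of the 9 with a window and no ERSE. Hspa5, which encodes BiP, the main ER chaperone of the Hsp70 family, had 8538, 10818, 9895 and 9327 normalized counts in KO_acute, against 7391, 8296 and 8492 (lowest, median, highest) in WT_acute. The lowest KO library stood just above the highest WT library (log2 fold change 0.24, SE 0.0641, adjusted p = 0.013). Hsp90b1, the ER member of the Hsp90 family, had 11054, 14012, 12189 and 11876 normalized counts in KO_acute, against 8393, 9984 and 10599 in WT_acute. Here too the groups did not overlap (0.33, SE 0.0772, adjusted p = 0.00753). Sdf2l1, part of an ER chaperone complex, had 1183, 1553, 1463 and 1094 normalized counts in KO_acute and 913, 998 and 1146 in WT_acute, so KO 4 fell within the WT range (0.39, SE 0.0984, adjusted p = 0.011). Creld2, an ER-resident folding factor, had 911, 1076, 1127 and 774 normalized counts in KO_acute, against 664, 733 and 918 in WT_acute, with KO 1 and KO 4 inside the WT range (0.36, SE 0.111, adjusted p = 0.027).

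Calr, Hyou1 and Manf were also called higher, each with overlapping groups. Calreticulin, the soluble lectin chaperone encoded by Calr, had 11392, 14023, 13320 and 11056 normalized counts in KO_acute and 9505, 10466 and 11640 in WT_acute (0.25, SE 0.0757, adjusted p = 0.0271). Hyou1, a nucleotide exchange factor of BiP, had 3153, 4013, 4015 and 3177 normalized counts in KO_acute and 2739, 2976 and 3277 in WT_acute (0.25, SE 0.0831, adjusted p = 0.0376). In both genes KO 2 and KO 3 were above all WT libraries and KO 1 and KO 4 were not. Manf, a secreted protein that binds BiP, had 1751, 1903, 1981 and 1589 normalized counts in KO_acute and 1475, 1577 and 1666 in WT_acute (0.20, SE 0.0654, adjusted p = 0.0377). The remaining chaperones were not called: the membrane lectin Canx was 0.05 (SE 0.0417), Dnajb9, a BiP cochaperone and a classical XBP1 target, was 0.15 (SE 0.101), or -0.01 after quantile normalization, and Dnajc3, a BiP cochaperone, was -0.03 (SE 0.047), or 0.35 when Trbc-scaled. Leaving out KO_acute 2 or KO_acute 3 took the calls of Calr (adjusted p = 0.0907 and 0.0912), Hyou1 (0.125 and 0.13), Creld2 (0.0872 and 0.0976) and Manf (0.111 and 0.133). Some of these calls also went without a single WT library: WT 4 or WT 6 for Calr (0.0506 and 0.0556), WT 3, 4, 5 or 6 for Hyou1 (0.0575 to 0.076), WT 6 for Creld2 (0.0501) and WT 1, 2, 4 or 6 for Manf (0.0507 to 0.0729).

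Of the 3 disulfide isomerases, which form and rearrange disulfide bonds of client proteins, Pdia4 and Pdia6 were higher. Pdia4 had 2586, 3291, 2870 and 2573 normalized counts in KO_acute, against 2163, 2301 and 2535 (lowest, median, highest) in WT_acute, and the groups did not overlap (log2 fold change 0.27, SE 0.0739, adjusted p = 0.017). Pdia6 had 3729, 4826, 4428 and 3710 normalized counts in KO_acute and 3163, 3345 and 3804 in WT_acute (0.29, SE 0.0823, adjusted p = 0.0199). KO 1 and KO 4 lay within the WT range, and the call went without KO 2 (adjusted p = 0.0656) or KO 3 (0.0679). Pdia3, which works with calnexin and calreticulin on glycoproteins, was 0.03 (SE 0.0487, adjusted p = 0.642).

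Genes of ER-associated degradation, which exports misfolded proteins for destruction, went in both directions. Sel1l, the adaptor of the HRD1 ubiquitin ligase, had 1604, 1951, 1861 and 1812 normalized counts in KO_acute, against 1355, 1421 and 1507 (lowest, median, highest) in WT_acute. All KO libraries were above all WT libraries (log2 fold change 0.34, SE 0.0598, adjusted p = 0.00141), and it was 0.26 and still called (adjusted p = 0.0325) without KO 2 and KO 3. Herpud1, which helps assemble that ligase, had 987, 1078, 1018 and 999 normalized counts in KO_acute and 836, 892 and 942 in WT_acute, again without overlap (0.19, SE 0.0522, adjusted p = 0.0159, and 0.0551 without KO 2). The ligase gene itself, Syvn1, was 0.20 (SE 0.0818) and not called (adjusted p = 0.0853), but was called without KO 1 (0.0335) or KO 4 (0.0484). Edem1, which directs misfolded glycoproteins to degradation, had 14382, 11008, 12032 and 14723 normalized counts in KO_acute, against 13850, 15260 and 16716 in WT_acute. It was lowest in KO 2 and KO 3, with KO 1 and KO 4 inside the WT range (-0.24, SE 0.0823, adjusted p = 0.046, and 0.14 when Trbc-scaled). The Edem1 call went without KO 2 or KO 3 (adjusted p = 0.148 and 0.137) or without any single library of WT 2 to WT 6 (0.0617 to 0.093).

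In the ATF4 branch, the factor genes themselves were not called. Atf4, whose activity is set largely by translation, had 2759, 3119, 3047 and 2987 normalized counts in KO_acute, against 2712, 2810 and 3011 (lowest, median, highest) in WT_acute (log2 fold change 0.07, SE 0.0482, adjusted p = 0.288). Ddit3, which encodes the stress factor CHOP, had 191, 456, 242 and 212 normalized counts in KO_acute and 181, 206 and 228 in WT_acute. KO 2 alone stood far above the other libraries (0.33, SE 0.202, adjusted p = 0.242). Chac1, a glutathione-degrading enzyme gene driven by ATF4, had 17.7, 80.9, 31.4 and 24 normalized counts in KO_acute, against 1.98, 4.45 and 13.7 in WT_acute. The groups did not overlap at these low levels (2.51, SE 0.529, adjusted p = 0.00398, on the log2(normalized count + 1) scale, which understates low genes), and without KO 2 and KO 3 it was 1.89 and not called (adjusted p = 0.086). Chac1 reached the level set for a test in 5 libraries, all those of KO_acute and WT 1. It was thus tested only through the group in which it is high. Of the 3 branch members with a CARE in the window, Asns and Chac1 were called higher and Trib3 was not tested. Because Chac1 was tested only through its KO libraries, these calls are no test of the motif. The share of all genes with a CARE that were higher was not counted. Trib3, a pseudokinase gene induced by ATF4 and CHOP, had 5.93, 13.9, 16.7 and 9.07 normalized counts in KO_acute and 0.986, 5.49 and 12.5 in WT_acute, below the level set for a test. Sesn2, a stress-induced inhibitor of mTORC1, ran from 199 to 363 in KO_acute and from 188 to 261 in WT_acute (0.41, SE 0.166, adjusted p = 0.0788, but 0.0104 without KO 1).

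Asns, the asparagine synthetase gene and a standard readout of ATF4, had 316, 799, 706 and 444 normalized counts in KO_acute, against 219, 263 and 360 (lowest, median, highest) in WT_acute. KO 1 fell within the WT range and the other 3 KO libraries were above it (log2 fold change 0.96, SE 0.239, adjusted p = 0.01, a 1.94-fold difference, and 0.46 with adjusted p = 0.172 without KO 2 and KO 3). The light and heavy chains of the large neutral amino acid transporter were not called, Slc7a5 at -0.09 (SE 0.0873, and 0.29 when Trbc-scaled) and Slc3a2 at 0.06 (SE 0.0633). Among the serine and one-carbon enzymes limma called 2 of 5 lower and 0 higher, beside 14.7% and 16.7% of all genes tested. At an unadjusted p under 0.05 by limma 1 of them, Mthfd2, was higher, as 20.6% of all genes were. Phgdh, which opens serine synthesis, had 6023, 4929, 5615 and 4990 normalized counts in KO_acute, against 5866, 6418 and 6684 in WT_acute (-0.24, SE 0.0612, adjusted p = 0.0104, and 0.13 when Trbc-scaled). KO 1 lay within the WT range and the others below it. Psph, the last step of serine synthesis, had 466, 366, 406 and 416 normalized counts in KO_acute, against 492, 506 and 547 in WT_acute (-0.32, SE 0.0738, adjusted p = 0.00692, and 0.06 when Trbc-scaled). Every KO library was below every WT library for Psph. The middle step, Psat1 (-0.05, SE 0.0508, and 0.32 when Trbc-scaled), and the mitochondrial enzymes Shmt2 (-0.16, SE 0.0701, and 0.22 when Trbc-scaled) and Mthfd2 (0.14, SE 0.0634) were not called, although Shmt2 passed without KO 1 (adjusted p = 0.016) and Mthfd2 without WT 2 (0.0321). Without KO 2 and KO 3, Phgdh was -0.21 (adjusted p = 0.0852) and Psph -0.22 (adjusted p = 0.1).

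Counted over libraries rather than means, 8 of 20 UPR members and 2 of 12 ATF4 branch members had no overlap between KO_acute and WT_acute, beside 22.7% of all genes tested. The 2 include Chac1, which was tested only through its KO libraries. Trbc1 and Trbc2 averaged -0.38 (log2) in KO_acute relative to WT_acute, so scaling to them lifted the median fold change over all genes by 0.38. With that scaling 19 of 20 UPR members and 8 of 12 ATF4 branch members were higher and 0 lower, beside 7414 of 16363 genes tested that were higher. Of all called genes 98.8% were then higher, beside 53.1% without it. Quantile normalization shifted that median by -0.11 and left 13 of 20 UPR members higher, beside 2331 of 16363 genes tested. Of all called genes 36.2% were then higher.

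Other genes of the same pathways were counted from wider lists. Of 28 further UPR genes 20 were higher and 1 lower in KO_acute (median 0.26), where 16.7% of all genes were higher and 14.7% lower. The largest rises were Nucb2, a calcium-binding protein of the secretory pathway (352 ± 157 normalized counts in KO and 42.8 ± 20.3 in WT, SD, n = 4 and 6, log2 fold change 3.03), Sec24d, of the COPII coat that leaves the ER (206 ± 75.1 in KO and 37.3 ± 11 in WT, 2.40), and Fkbp11, an ER prolyl isomerase abundant in secretory cells (35.1 ± 15.8 in KO and 7.69 ± 3.55 in WT, 2.06). Fkbp11 reached the level set for a test only with its KO_acute libraries. The 1 fall was Mbtps1, the Golgi protease that makes the first cut in ATF6 (2983 ± 169 in KO and 3296 ± 57.4 in WT, -0.15, and 0.23 when Trbc-scaled). Of 33 tested further ATF4 branch genes 5 were higher and 3 lower (median 0.05, and -0.06 after quantile normalization), shares not above those of all genes. The 3 largest rises were Jdp2, a bZIP repressor (1.96, SE 0.24), Cebpb, a bZIP factor (1.52, SE 0.224), and Eif2ak2, the kinase that senses double-stranded RNA (0.75, SE 0.121). The 3 called lower were Slc1a5, a glutamine transporter (-0.27, SE 0.0771, and 0.11 when Trbc-scaled), and the seryl and threonyl tRNA synthetases Sars (-0.23, SE 0.0492, and 0.15 when Trbc-scaled) and Tars (-0.14, SE 0.0467, and 0.24 when Trbc-scaled). In the survival arm 0 of 27 further UPR genes and 0 of 31 further ATF4 branch genes were called by limma, with 3 and 6 of them at an unadjusted p under 0.05, beside 8.74% of all genes.

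UPR members stood highest in the acute libraries in which markers of other cells were highest. The mean log2(normalized count + 1) over the 20 UPR members, set relative to the WT mean, was 0.12, 0.45, 0.36 and 0.18 in KO_acute 1 to 4 and ran from -0.07 to 0.08 in WT_acute. For 12 ATF4 branch members it was 0.15, 0.55, 0.39 and 0.13 in KO_acute and ran from -0.13 to 0.14 in WT_acute, so the lowest KO library fell within the WT range. These 12 include Chac1, which was tested only through its KO libraries and had a log2 fold change of 2.51, beside a branch median of 0.07. The ATF4 branch mean is therefore not read as a level of the branch apart from Chac1. Both means were highest in KO 2 and KO 3. Summed levels of the marker lists in the score of other cell types showed the same order of groups. Neutrophil markers summed to 178079 to 602417 normalized counts in KO_acute and 11879 to 49125 in WT_acute. Monocyte and macrophage markers summed to 20878 to 63642 in KO_acute and 3052 to 6584 in WT_acute. B-cell markers summed to 913 to 2118 in KO_acute and 397 to 839 in WT_acute. Plasma-cell markers summed to 6272 to 9913 in KO_acute and 4005 to 4954 in WT_acute. Of these Jchain, the joining chain of secreted antibodies (3561 ± 1312 normalized counts in KO and 874 ± 241 in WT, SD, n = 4 and 6), Mzb1, an ER chaperone of B-lineage cells (1.60, SE 0.335), Pou2af1, a B-lineage coactivator (1.30, SE 0.185), and Prdm1, the factor that directs plasma-cell fate (1.08, SE 0.34, not called after quantile normalization at adjusted p = 0.0621), were higher, while Sdc1 was -0.04 and not called (0.34 when Trbc-scaled). Of the other plasma-cell markers, Irf4 (0.13, SE 0.0895) and Tent5c (0.53, SE 0.329) were not called, and Tnfrsf17 was too low for a test. No listed marker was at 0 in every library of a table. Their part in the UPR differences was not tested.

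**Figure D4:**
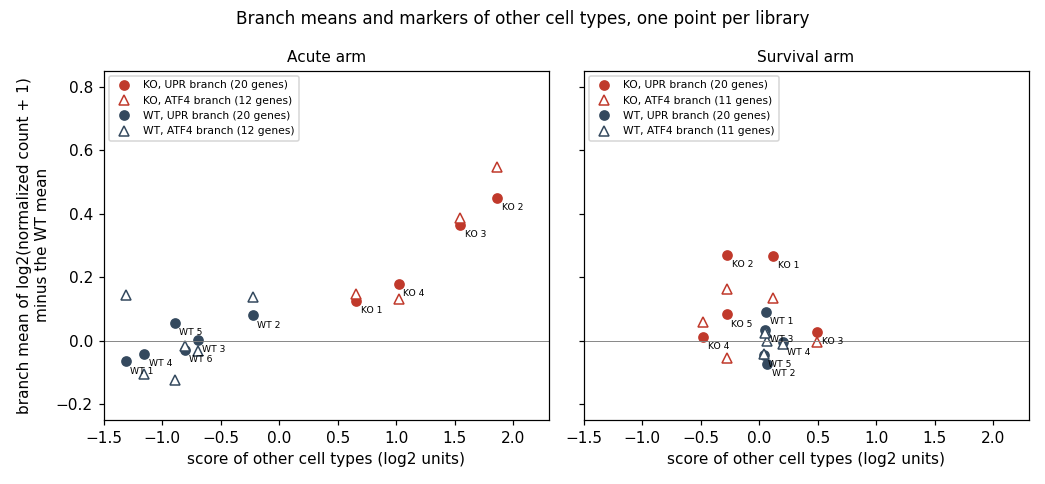
Mean log2(normalized count + 1) of the UPR members (filled circles) and ATF4 branch members (open triangles) relative to the WT mean, against the score of other cell types, with 1 point per library and branch, KO in red and WT in blue. In the acute arm KO 2 and KO 3 are highest on both axes, and in the survival arm KO 1 and KO 2 have the highest UPR means at scores of 0.12 and -0.27. The acute ATF4 branch means include Chac1, which was tested only through its KO libraries.

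The second comparison asks what set the endpoint leukemias apart after early deletion. limma called 0 of 31 members in KO_survival against WT_survival, where it called 2 of 16136 genes (0.0124%). At an unadjusted p under 0.05 stood 3 members, Hspa5, Pdia3 and Atf6, all higher, beside 8.74% of all genes in either direction and 5.13% higher. Fold changes were above 0 for 19 of 20 UPR members and 9 of 11 ATF4 branch members, beside 52.6% of all genes, with medians of 0.12 and 0.06 and 0.01 over all genes. They ran from -0.12 (Sesn2) to 0.41 (Atf6). For 13 of the 20 UPR members the 2 highest of all 10 libraries were KO_survival 1 and 2, which was so for 3 of 11 ATF4 branch members. The score of other cell types was 0.12 and -0.27 in those libraries, within the KO range of -0.48 to 0.49, and ran from 0.04 to 0.20 in WT_survival.

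Among the sensors, Atf6 alone had groups that did not overlap, as 2.01% of all genes did. It had 658, 729, 519, 491 and 543 normalized counts in KO_survival 1 to 5, against 410, 451, 448, 469 and 414 in WT_survival 1 to 5. The log2 fold change was 0.41 (SE 0.107), which did not pass the adjustment over all genes (adjusted p = 0.261, unadjusted p = 0.00216 by limma). Ern1 had 346, 381, 243, 243 and 321 normalized counts in KO_survival and 297, 275, 249, 304 and 239 in WT_survival, with KO 3 and KO 4 among the lowest libraries (0.15, SE 0.137, adjusted p = 0.777). Xbp1 had 948, 952, 1019, 928 and 957 normalized counts in KO_survival and 962, 862, 904, 1031 and 790 in WT_survival (0.08, SE 0.0735, adjusted p = 0.766). The KO values of Xbp1 lay wholly inside the WT range.

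**Figure D5:**
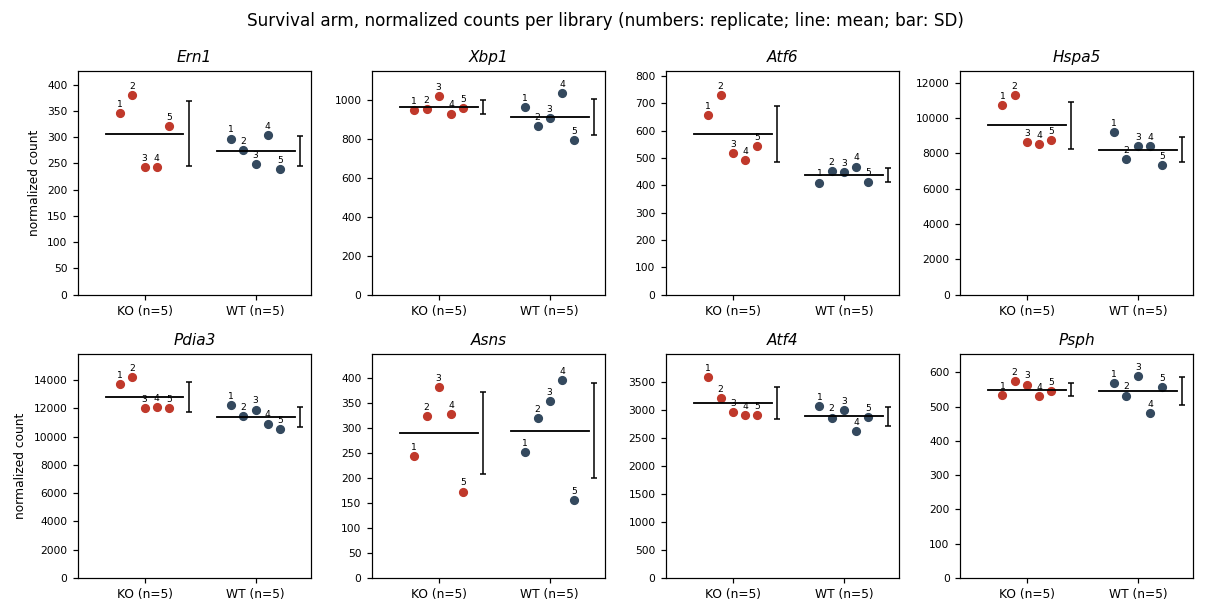
Normalized counts of 8 members in each survival library, KO (n = 5) left of WT (n = 5), with the replicate number above each point, the group mean as a line and the SD as a bar. Only Atf6, at 491 to 729 in KO and 410 to 469 in WT, shows no overlap, and Hspa5 and Pdia3 are highest in KO 1 and KO 2.

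Of the 10 chaperones 8 were highest in KO_survival 1 and 2, the exceptions being Dnajb9, highest in WT_survival 3, and Dnajc3, highest in KO_survival 5. Hspa5 had 10727, 11320, 8616, 8501 and 8744 normalized counts in KO_survival, against 9185, 7675, 8432, 8427 and 7333 in WT_survival (log2 fold change 0.22, SE 0.0916, adjusted p = 0.518, unadjusted p = 0.0343). Hsp90b1 had 12998, 12818, 9766, 9616 and 10055 in KO_survival, against 11414, 8867, 10322, 8782 and 8428 in WT_survival (0.20, SE 0.108, adjusted p = 0.63). In both genes KO 1 and KO 2 were above every WT library and KO 3 to KO 5 overlapped with WT. Calr had 12192, 12392, 9714, 9917 and 9776 normalized counts in KO_survival and 10595, 9756, 10172, 9860 and 10240 in WT_survival (0.08, SE 0.0767). Hyou1 had 3993, 3809, 2854, 2672 and 3179 in KO_survival and 3263, 2442, 2919, 2809 and 3248 in WT_survival (0.16, SE 0.115). For these also, KO 1 and KO 2 were the highest 2 of 10 libraries and the other KO libraries were not above WT. Sdf2l1 had 1217, 1116, 797, 768 and 846 normalized counts in KO_survival and 900, 701, 873, 872 and 1033 in WT_survival (0.10, SE 0.136). Creld2 had 906, 865, 674, 650 and 808 in KO_survival and 783, 649, 682, 680 and 790 in WT_survival (0.12, SE 0.102). Manf had 1909, 1755, 1487, 1502 and 1482 in KO_survival and 1717, 1359, 1611, 1246 and 1261 in WT_survival (0.18, SE 0.104). None of these 7 chaperones was called, at adjusted p-values from 0.518 (Hspa5) to 0.853 (Sdf2l1).

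The isomerases followed the chaperones. Pdia3 had 13708, 14214, 12006, 12088 and 11987 normalized counts in KO_survival, against 12252, 11445, 11912, 10919 and 10501 in WT_survival (log2 fold change 0.16, SE 0.0666, adjusted p = 0.488, unadjusted p = 0.028). Pdia4 had 3055, 2983, 2322, 2143 and 2339 in KO_survival and 2652, 1855, 2356, 2113 and 2077 in WT_survival (0.21, SE 0.115). Pdia6 had 4302, 4220, 3213, 3033 and 3109 in KO_survival and 3508, 2989, 3316, 3217 and 3240 in WT_survival (0.12, SE 0.101). KO 1 and KO 2 were again the highest 2 libraries for each. The degradation genes did not share that order. Herpud1 had 968, 950, 927, 988 and 891 normalized counts in KO_survival and 885, 850, 963, 1046 and 976 in WT_survival (0.0038, SE 0.0676). Sel1l had 1612, 1728, 1673, 1664 and 1784 in KO_survival and 1727, 1819, 1536, 1638 and 1573 in WT_survival (0.03, SE 0.0595, and -0.05 when Trbc-scaled). Edem1 had 14724, 13051, 16471, 15831 and 16286 in KO_survival and 16277, 15155, 16347, 14790 and 14482 in WT_survival (-0.02, SE 0.07). All 3 overlapped between the groups.

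The ATF4 branch in the survival arm overlapped between the groups throughout. Atf4 had 3580, 3204, 2961, 2908 and 2909 normalized counts in KO_survival, against 3067, 2858, 2985, 2618 and 2863 in WT_survival (log2 fold change 0.11, SE 0.0683, adjusted p = 0.676). Ddit3 had 193, 227, 233, 261 and 219 in KO_survival and 202, 240, 212, 253 and 210 in WT_survival (0.02, SE 0.107). Asns had 243, 322, 380, 328 and 172 in KO_survival and 251, 318, 353, 394 and 154 in WT_survival (-0.01, SE 0.256). The spread of Asns was similar and wide in both groups, with replicate 5 lowest in each. Chac1 had 8.64, 3.64, 8.14, 15.5 and 0 normalized counts in KO_survival and 7.83, 5.49, 5.7, 17.7 and 2.94 in WT_survival. Trib3 had 4.81, 3.64, 1.02, 19.4 and 5.87 in KO_survival and 3.9, 5.47, 2.85, 23.6 and 5.91 in WT_survival. Both were too low for a test, and each was highest in replicate 4 of both groups. Phgdh had 7164, 6450, 6260, 6492 and 6005 in KO_survival and 6606, 6529, 6232, 5766 and 7074 in WT_survival (0.01, SE 0.0645). Psph had 535, 574, 565, 532 and 545 in KO_survival and 569, 533, 589, 481 and 559 in WT_survival (0.01, SE 0.0715). The 10 members not described for this arm ran from -0.12 (Sesn2) to 0.24 (Mthfd2), and none was called. The signs of Phgdh, Psph, Ddit3 and Herpud1 in this arm turned both when Trbc-scaled and after quantile normalization.

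The third comparison tested whether the arms differed, as the survival fold change minus the acute one over 15673 genes tested in both tables. Both fold changes were taken inside a table, since the tables were scaled apart. limma called 4 of 31 members, beside 20.2% of all genes (10.9% lower and 9.39% higher in the survival arm). The difference was -0.80 for Ern1 (SE 0.215, adjusted p = 0.0116), -0.64 for Xbp1 (SE 0.182, adjusted p = 0.0174) and -0.31 for Sel1l (SE 0.0815, adjusted p = 0.0112), each with the smaller fold change in the survival arm. For Psph, at -0.32 in the acute arm and 0.01 in the survival arm, the difference was 0.33 (SE 0.0968, adjusted p = 0.0201), and -0.13 when Trbc-scaled. The chaperones were not called in this contrast, Hspa5 being -0.03 (SE 0.118, adjusted p = 0.899). Nor was Atf6 (-0.23, SE 0.184, adjusted p = 0.409) or Asns (-0.96, SE 0.38, adjusted p = 0.0787). Adding the cell-type score to the fit ended all 4 calls, and nearly all calls over all genes. The differences were then -0.12 for Ern1, 0.66 for Xbp1, -0.11 for Sel1l and 0.017 for Psph. KO_acute and WT_acute scores did not overlap, so that fit could not separate deletion from the score in the acute arm. With Trbc scaling 24 of 31 members were called, among them Ern1 (-1.26), Xbp1 (-1.09) and Sel1l (-0.77). The share of all genes called was then also well above 20.2%, with the count given in the section on processing. Without KO_acute 2 and 3 together 0 of these 4 differences was called by limma (adjusted p = 0.133 for Ern1, 0.228 for Xbp1, 0.13 for Sel1l and 0.174 for Psph). The call of Xbp1 also went without KO_acute 3 alone (adjusted p = 0.0511) and that of Psph without KO_acute 2 alone (0.0584).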

How the data were processed

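Poly(A) RNA of 20 spleen suspensions was sequenced as strand-specific libraries, per the labels. The authors deposited 2 tables, each a signal of normalized counts with 1 column per library, scaled separately. kallisto 0.46.0, GRCm39 and DESeq normalization are named per the submitters' processing notes, without annotation or gene-level step. Low values lay within 0.1 of a whole multiple of a library's best step for 57.8 to 83.0% of genes, so whole reads were not recovered, depth is unknown and no count test was run. The log2(normalized count + 1) of each deposited value was fitted with limma 3.58.1 in R 4.3.3 (group means, eBayes with a mean-variance trend). Genes at 10 or more in at least 4 acute or 5 survival libraries were tested, and p-values were two-sided. Same-numbered libraries were checked for shared deviations: r ran from -0.07 to 0.14 over 4 acute pairs and from -0.02 to 0.13 over 5 survival pairs, so the numbers were not taken to pair samples. No 2 libraries were identical.

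The members, gene and marker lists, motifs, named genes and alternatives were chosen with earlier results of these data known. Named with full values were Hspa5, Xbp1, Atf6, Ern1, Atf4, Ddit3, Asns, Chac1, Trib3 and every member called in any comparison. Pdia3 was added in the survival arm after its values were seen. Of the other pathway genes the 3 largest rises and falls among called genes were named, and Eif2ak3 for its role. Promoters are from RefSeq on GRCm38.p6, another build than the authors', and were used for sequence alone. The fit was tested on simulated data. Figures were drawn with Python 3.11.15 and matplotlib 3.10.9.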

Additional observations from a re-analysis of the deposited data

Results flagged for a closer look

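Of 132 sets of libraries (33 members in 4 groups), 4 held a library far from the others by Dixon's test at the 95% level, where chance marks about 1 in 20. Creld2 was 918 normalized counts in WT_acute 2, above the next WT value of 738. Mthfd2 was 1617 in WT_acute 2, above 1441. Trib3 was 19.4 in KO_survival 4, above 5.87, and 23.6 in WT_survival 4, above 5.91, both low values.

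The fold changes of 4 members differed between the arms by limma's contrast. Survival minus acute log2 fold change was -0.80 for Ern1, -0.64 for Xbp1, -0.31 for Sel1l and 0.33 for Psph.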

How the results depend on the processing

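Pseudocounts of 0.5 and 5 changed no call of a member. With no filter, no mean-variance trend, quantile normalization or the replicate block, 0 UPR members were lower in KO_acute (Edem1 lost its call), while 13, 10, 13 and 11 were higher. With quantile normalization 2331 of all 16363 genes tested were higher and 4106 lower. Shares of all genes by direction are not given for the other settings, so their counts do not set the members apart from all genes. The replicate numbers were not taken to pair the samples, and the labels do not state a pairing. The replicate block over 4 numbers called 3228 genes in the acute arm, with Hyou1, Manf, Herpud1 and Edem1 not called.

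Scaled to Trbc1 and Trbc2, 0 UPR and 0 ATF4 branch members were lower and 8 ATF4 branch members higher in KO_acute, with medians of 0.62 for the UPR and 0.44 for the ATF4 branch. Of 16363 genes tested 7414 were then higher and 90 lower. The survival arm then had 1 gene called and the difference between the arms 6992 of 15673 genes tested, of which 24 were members. Signs that turned with this scaling were those of Dnajc3 (0.35), Edem1 (0.14), Phgdh (0.13), Psat1 (0.32), Psph (0.059), Shmt2 (0.22) and Slc7a5 (0.29) in the acute arm, Herpud1 (-0.079), Sel1l (-0.052), Ddit3 (-0.066), Phgdh (-0.075) and Psph (-0.070) in the survival arm, and the difference of Psph (-0.13). With quantile normalization they were Dnajb9 in the acute arm (-0.015) and Herpud1 (-0.018), Ddit3 (-0.021), Phgdh (-0.013) and Psph (-0.013) in the survival arm.

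With the score of other cell types added to the fit, limma called 0 genes in the acute arm (990 at an unadjusted p under 0.05), 0 members in either direction, 1 gene in the survival arm, and 1 gene and 0 members in the difference. KO and WT scores do not overlap in the acute arm, so the fit could not separate deletion from the score there. Medians were -0.19 (UPR) and -0.17 (ATF4 branch). Acute signs that turned were Hspa5 -0.18, Hsp90b1 -0.16, Hyou1 -0.24, Calr -0.31, Canx -0.074, Dnajb9 -0.49, Sdf2l1 -0.26, Creld2 -0.38, Manf -0.0052, Pdia3 -0.20, Pdia4 -0.25, Pdia6 -0.34, Atf6 -0.059, Xbp1 -0.55, Herpud1 -0.051, Syvn1 -0.20, Edem1 0.14, Atf4 -0.21, Ddit3 -0.49, Sesn2 -0.34, Mthfd2 -0.17, Asns -0.71 and Slc3a2 -0.16. In the survival arm Ddit3 was -0.00029 and Asns 0.077, and the Xbp1 difference was 0.66.

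Without KO_acute 2 and 3 together, 2079 genes were called in the acute arm, 2 UPR members higher and 0 lower, 0 ATF4 branch members in either direction, and in the difference 1251 genes and 0 members. Pdia3 (-0.0066), Ddit3 (-0.027) and Slc3a2 (-0.038) turned sign. The cause was not tested.

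Leaving out 1 library at a time gave 8 to 15 UPR members higher in KO_acute (8 without KO 2, 9 without KO 3) and 0 to 1 lower, 3 to 7 members in the difference (7 without KO_acute 1) and 1 to 23 genes in the survival arm (23 without WT_survival 4). With all libraries 16.7% of all genes were higher in KO_acute and 20.2% were called in the difference. Shares of all genes in the same runs are not given here, so these counts do not set the members apart from all genes. Signs turned for Dnajc3 (-0.054 to 0.0030) and Slc7a5 (-0.14 to 0.0084) in the acute arm, and in the survival arm for Herpud1 (-0.033 to 0.042), Phgdh (-0.031 to 0.043), Asns (-0.22 to 0.17), Edem1 (-0.045 to 0.039), Psph (-0.032 to 0.041) and Ddit3 (-0.035 to 0.073). Depth is unknown, so the precision of low genes such as Chac1 and Trib3 rests on the spread between libraries.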
